A study of Rattus norvegicus with 12 samples.

Results

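The 10 iron handling genes, whose products move, store, sense or recycle iron, were followed in the renal cortex of lean, obese and drug-treated obese rats. They were chosen by name: the uptake genes Tfrc and Slc11a2, the ferritin genes Fth1 and Ftl1, the export genes Slc40a1, Cp and Heph, the iron sensors Ireb2 and Aco1, and the heme-degrading enzyme gene Hmox1. Earlier results of these data were known when they were chosen. All 10 were among the 13151 genes of the table and among the 11633 genes that passed the filter on low values. The groups were ZL, lean Zucker rats; ZF, obese Zucker fatty rats that lack a working leptin receptor; and ZF-SGLT2i, ZF rats that received canagliflozin, an inhibitor of the sodium-glucose cotransporter SGLT2, in their food at 10 mg/kg/day, begun at an age of 24 weeks and kept up for 8 weeks. Each group held 4 male rats, all 32 weeks old, and each rat gave 1 RNA-seq library of whole renal cortex. Rats are named by group and label number: ZL rats 1 to 4, ZF rats 2 to 5, and ZF-SGLT2i rats 2, 3, 4 and 6. The obese rats carry the receptor defect in every tissue, and the groups include no lean rats given the drug. In the paper, ZL rats had earlier wedge biopsies of the kidney, and treated rats came from a separate set with no biopsy described. It names the sequenced untreated obese rats both ZF and ZF-NT, so their set is uncertain. The part of biopsy and set in the comparisons was not tested.

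The depth was 8824980 to 12210257 reads on genes in each rat. The values are CPM, counts scaled to a common library size, with factors of the TMM method, which corrects for differences in library make-up. Over the 12 rats the reads behind a member ran from 28 to 79 for Hmox1 and from 113 to 212 for Heph, at 483 or more for the other members, and from 17590 to 35174 for Ftl1. The share of ribosomal RNA genes was 7.25% to 12.0% for ZL rats, 8.82% to 12.0% for untreated ZF rats and 11.5% to 15.2% after treatment, and the calls of Tfrc and Aco1 described below held when the scaling left those genes out. Fewer reads give wider counting errors, which are widest for Hmox1 among the 10. CPM is not divided by gene length, so levels are compared between rats and not between genes, and a gene said to lead a marker list is the one with the most reads. Markers of the proximal tubule, the segment that takes up filtered iron, were present in every rat: summed CPM of the 10 markers, led by Lrp2, was 24218 ± 1400 in ZL, 19563 ± 2216 in ZF and 17479 ± 1910 in the ZF-SGLT2i group (mean ± SD, n = 4). Lrp2 alone was 10736 ± 422, 7835 ± 1228 and 6440 ± 1017 CPM, and the 10 markers did not all move 1 way. In ZF against ZL, 4 had a positive log2 fold change and 6 a negative one. In ZF-SGLT2i against ZF, 5 were positive and 5 negative. Fewer cells of a type and less RNA per cell cannot be told apart in such tissue.

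Cells take up transferrin-bound iron through the transferrin receptor, encoded by Tfrc, and pass it out of endosomes through the transporter of Slc11a2. Iron that is not used is stored in ferritin, built from the heavy chain of Fth1 and the light chain of Ftl1, or leaves the cell through ferroportin, the product of Slc40a1. The iron regulatory proteins, encoded by Aco1 and Ireb2, bind RNA hairpins when iron is scarce, which protects Tfrc mRNA from decay and blocks translation of ferritin mRNA. Proximal tubule cells reclaim filtered iron and heme from the urine, which gives these genes a role in the kidney.

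The sequences shown here are the promoters of the 2 members with the smallest p-values in the comparisons below, Tfrc in ZF against ZL and Aco1 in ZF-SGLT2i against ZF. RefSeq promoters were matched for 7 of the 10 members. Each run is the 250 bases before the annotated start in GRCr8, on the strand of the gene, with the bases of 4 motifs in capitals. The Tfrc run is chr11:81690319-81690568 on the minus strand, and the Aco1 run is chr5:60055645-60055894 on the plus strand.
Tfrc: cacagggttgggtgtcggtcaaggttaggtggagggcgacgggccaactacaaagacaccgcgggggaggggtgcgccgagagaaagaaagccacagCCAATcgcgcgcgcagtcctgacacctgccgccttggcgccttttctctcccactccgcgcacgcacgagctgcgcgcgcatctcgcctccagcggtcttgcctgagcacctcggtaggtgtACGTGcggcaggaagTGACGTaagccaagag
Aco1: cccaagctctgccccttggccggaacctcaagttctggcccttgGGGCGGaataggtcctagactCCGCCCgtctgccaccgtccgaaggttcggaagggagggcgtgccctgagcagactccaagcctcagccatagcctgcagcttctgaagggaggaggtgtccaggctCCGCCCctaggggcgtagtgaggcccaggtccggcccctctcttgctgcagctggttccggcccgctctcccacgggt
The motifs searched on both strands were ACGTG, a core bound by hypoxia-inducible factors, TGACGT, a cyclic AMP response core, the GC box GGGCGG, and the widespread promoter motif CCAAT. In Tfrc the hypoxia core begins 31 bases, the cyclic AMP response core 16 bases and the last motif 153 bases before the start. The GC box, as such or on the other strand, begins 206, 185 and 78 bases before the start of Aco1. Of 33469 rat promoter windows of this length, 16.6% held the hypoxia core, 6.95% the cyclic AMP response core, 30.5% the GC box and 34% the last motif. The first 2 motifs can share bases, and in Tfrc they do not. The matches describe the letters of the windows only.

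In ZF against ZL, 3 of the 10 members passed the test, and Tfrc moved most. Transferrin receptor mRNA in the obese rats fell by 54.5%, ferritin light chain mRNA fell by 17.1% and ferroportin mRNA rose by 23.3%. The test was limma on log2(CPM + 1) with Benjamini-Hochberg adjustment over all 11633 genes, and called genes are those with an adjusted p-value under 0.05. Of all genes, 18.8% were called, 8.19% higher and 10.6% lower in ZF, or 953 and 1232 genes; with quantile normalization the split was 1108 and 943. Of the members, 1 was called higher and 2 lower, and their median log2 fold change was 0.01, against -0.008 for all genes. In ZF-SGLT2i against ZF, Aco1 rose and no other member was called, where 3.15% of all genes were called, 1.39% higher and 1.75% lower. The median log2 fold change of the members was -0.17 there, against 0.006 for all genes. In ZF-SGLT2i against ZL, Aco1 was higher and Tfrc, Ftl1, Ireb2 and Hmox1 were lower, at a background of 27.4% called, 12.4% higher and 15% lower. That background was 1441 genes higher and 1743 lower, and with quantile normalization the split was 1614 and 1461. Values of the members did not overlap between the groups for 3, 2 and 4 members in these comparisons, in that order, against 19%, 11.2% and 28% of all genes. Any 2 of these comparisons share a group of 4 rats, so their counts are not separate evidence. The member count in ZF against ZL was 1 without ZL rat 4 or ZF rat 3 and 5 without ZF rat 4. In ZF-SGLT2i against ZF it was 2 without ZL rat 4 or ZF-SGLT2i rat 2, and in ZF-SGLT2i against ZL it was 3 without ZL rat 2, ZL rat 4, ZF-SGLT2i rat 3 or ZF-SGLT2i rat 6. The count over all genes moved as well. With all rats it was 2185, 366 and 3184 in the 3 comparisons. With single rats left out it ranged from 1389 to 2453, 176 to 570 and 2241 to 3302, and in ZF against ZL it was 1426 without ZF rat 3.

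**Figure D1:**
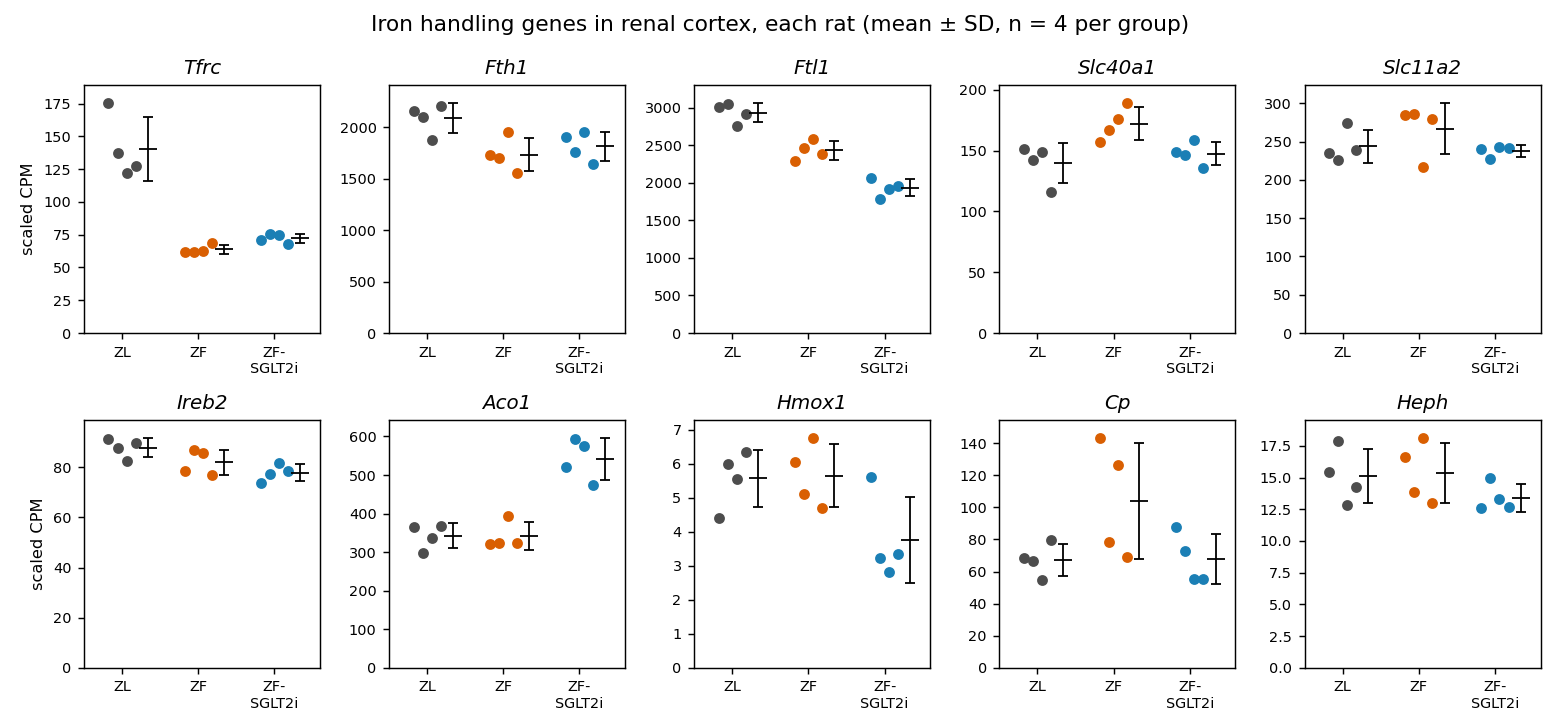
Scaled CPM (vertical axes, from 0) of the 10 iron handling genes in ZL (grey), ZF (orange) and ZF-SGLT2i (blue), with 1 point per rat in order of rat number and the mean ± SD of the 4 rats in black. Tfrc lay between 122 and 175 in ZL and at or below 75.6 in all 8 obese rats, and Aco1 lay between 475 and 594 in ZF-SGLT2i and at or below 395 in the other 8 rats.

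Tfrc, the receptor for iron-loaded transferrin, stood at 175, 137, 122 and 127 CPM in ZL rats 1 to 4. In ZF rats 2 to 5 it was 61.9, 62.1, 62.9 and 68.9 CPM, and in ZF-SGLT2i rats 2, 3, 4 and 6 it was 71.1, 75.6, 74.7 and 68.2 CPM. All 8 obese rats were below all 4 lean rats, and ZF and ZF-SGLT2i overlapped through ZF rat 5. The mean was 64.0 ± 3.30 in ZF and 140.4 ± 24.1 in ZL (SD, n = 4), or 0.455 times. The log2 fold change was -1.11 (SE 0.09, limma adjusted p = 1.1e-05), and an exact two-sided permutation test gave p = 0.0286, the smallest that 4 rats against 4 allow. Tfrc kept its call under all 24 alternative settings, with log2 fold changes from -1.225 to -0.999. ZF-SGLT2i against ZF gave a log2 fold change of 0.18 (95% interval -0.02 to 0.38, limma adjusted p = 0.36). The treated rats remained below ZL (log2 fold change -0.93, limma adjusted p = 2.2e-05).

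Slc11a2, which moves ferrous iron across endosomal and apical membranes, did not pass the test in any comparison with all rats in the fit. Its CPM was 235, 226, 275 and 239.6 in ZL, 285, 286, 217 and 279.7 in ZF and 240.2, 227, 243 and 241 in the ZF-SGLT2i group. ZF rat 4 was below the other ZF rats, and the 3 groups overlapped. The log2 fold change was 0.12 in ZF against ZL (95% interval -0.06 to 0.31, limma adjusted p = 0.35) and -0.16 in ZF-SGLT2i against ZF (95% interval -0.34 to 0.03, limma adjusted p = 0.39). Without ZF rat 4 the first of these was 0.219 and passed the threshold (limma adjusted p = 0.0312), the only 1 of 24 alternatives in which it did.

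Ftl1, the light chain of ferritin, was 3001, 3049, 2760 and 2908 CPM in ZL, 2289, 2458, 2582 and 2388 CPM in ZF, and 2069, 1789, 1923 and 1961 CPM in ZF-SGLT2i. The groups followed the order ZL, ZF, ZF-SGLT2i with no overlap between neighbours. Ftl1 fell by 17.1% in ZF against ZL (log2 fold change -0.27, SE 0.09, limma adjusted p = 0.044), a call that held in 7 of 24 alternatives, and the sign turned with quantile normalization (0.05, adjusted p = 0.741). Left out singly, 10 of the 12 rats took that call away, all but ZL rat 3 and ZF rat 4, with limma adjusted p-values from 0.0552 to 0.119. ZF-SGLT2i against ZF gave -0.33 (95% interval -0.51 to -0.14, limma adjusted p = 0.058, exact permutation p = 0.0286), which missed the threshold and passed it in 5 of 24 alternatives, edgeR (adjusted p = 0.0348), DESeq2 (adjusted p = 6.45e-06) and the fit without ZL rat 4 (adjusted p = 0.0484) among them. Against ZL, Ftl1 of the treated rats fell by 33.9% (log2 fold change -0.60, limma adjusted p = 0.00034), and quantile normalization alone took this below the call (-0.228, adjusted p = 0.0732).

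Fth1, the heavy chain with the ferroxidase site, was 2157, 2099, 1877 and 2207 CPM in ZL, 1728, 1701, 1948 and 1552 CPM in ZF, and 1904, 1756, 1954 and 1646 CPM in ZF-SGLT2i. ZF rat 4 reached into the ZL range and the other ZF rats lay below it. Its log2 fold change in ZF against ZL was -0.27 (95% interval -0.48 to -0.06, limma adjusted p = 0.067), and quantile normalization turned it to 0.053. It passed the threshold in 5 of 24 alternatives: DESeq2 (-0.257, adjusted p = 0.018), array quality weights (-0.295, limma adjusted p = 0.0249), only genes with a mean of at least 10 (limma adjusted p = 0.0498), and the fits without ZL rat 3 (-0.319, limma adjusted p = 0.0483) or ZF rat 4 (-0.327, limma adjusted p = 0.0267). ZF-SGLT2i against ZF gave 0.07 (95% interval -0.14 to 0.28, limma adjusted p = 0.77). Ferritin genes have many near-identical processed copies in the genome. RSEM, which the submitters' notes name, divides reads that match several places by a model, and its settings here are not given in the sources used here, so both ferritin values are uncertain to that extent.

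Slc40a1, encoding ferroportin, the exporter of iron from cells, was 151, 142, 149 and 116 CPM in ZL, 157, 167, 176 and 189 CPM in ZF, and 149, 146, 159 and 135 CPM in ZF-SGLT2i. Every ZF rat was above every ZL rat, by the smallest margin between ZF rat 2 and ZL rat 1, and the treated rats overlapped with both groups. It was higher by 23.3% in ZF (log2 fold change 0.30, SE 0.09, limma adjusted p = 0.026). The call was lost in 6 of 24 alternatives: without ZL rat 4 (0.218, adjusted p = 0.0553), ZF rat 3 (adjusted p = 0.0507) or ZF rat 5 (adjusted p = 0.074), with only the 2 groups fitted (adjusted p = 0.0555), and on rats 2, 3 and 4 with or without a term for the rat number. In ZF-SGLT2i against ZF the log2 fold change was -0.22 (95% interval -0.41 to -0.04, limma adjusted p = 0.20).

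Ceruloplasmin and hephaestin are copper ferroxidases that oxidize iron as it leaves through ferroportin. Cp was 68.4, 66.8, 54.8 and 79.4 CPM in ZL, 143, 78.4, 126 and 69.0 CPM in ZF, and 88.1, 73.0, 55.6 and 55.4 CPM in ZF-SGLT2i. ZF rats 2 and 4 were above all other rats, and ZF rats 3 and 5 lay within the range of the other groups. The log2 fold change was 0.57 in ZF against ZL (95% interval 0.10 to 1.03, limma adjusted p = 0.083) and -0.57 in ZF-SGLT2i against ZF (95% interval -1.03 to -0.11, limma adjusted p = 0.18). The first of these passed the threshold with DESeq2 on all rats (0.641, adjusted p = 0.0225) and without ZF rat 5 (0.742, limma adjusted p = 0.0309). ZF rats 2 and 4 also held the highest Havcr1 values, the kidney injury molecule of damaged tubules, at 52.3 and 32.1 CPM, with 14.6 and 7.32 in ZF rats 3 and 5 and 1.56 to 1.88 in ZL. They also held the highest Spp1, at 1473 and 1056 CPM, against 411 and 313 in the other ZF rats. Both genes were picked from 12 injured tubule markers after their values were seen. Not all 12 had this order: Krt18 was lowest in ZF rat 4 and highest in ZF rat 5 among the ZF rats. The part of tubular injury in the Cp values was not tested. Heph was 15.4, 17.9, 12.8 and 14.3 CPM in ZL, 16.6, 13.8, 18.1 and 13.0 in ZF and 12.6, 14.9, 13.3 and 12.7 in the ZF-SGLT2i group, with overlap throughout. Its log2 fold change was 0.02 in ZF against ZL (95% interval -0.23 to 0.28, limma adjusted p = 0.92) and -0.18 in ZF-SGLT2i against ZF (95% interval -0.43 to 0.07, limma adjusted p = 0.47).

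Aco1 encodes iron regulatory protein 1, which serves as the cytosolic aconitase when it holds an iron-sulfur cluster and binds RNA when it does not. It was 365, 298, 336 and 368 CPM in ZL and 321, 324, 395 and 325 CPM in ZF. In ZF-SGLT2i it was 521, 594, 576 and 475 CPM, so that all 4 treated rats were above all 8 untreated rats. The mean rose by 58.8%, from 341 ± 36.0 in ZF to 541 ± 54.4 in ZF-SGLT2i (SD, n = 4). This was a log2 fold change of 0.67 (SE 0.09, limma adjusted p = 0.0017, exact permutation p = 0.0286), and the call held in all 24 alternatives, with log2 fold changes from 0.619 to 0.738. ZF and ZL differed by -0.01 (95% interval -0.21 to 0.20, limma adjusted p = 0.98), a value whose sign turned in 11 alternatives.

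Ireb2, encoding iron regulatory protein 2, which is degraded when iron is plentiful, was called only in ZF-SGLT2i against ZL. It was 91.4, 87.8, 82.7 and 89.6 CPM in ZL, 78.5, 86.9, 85.5 and 77.0 in ZF and 73.6, 77.2, 81.8 and 78.5 in the ZF-SGLT2i group. The treated rats lay below the lean rats without overlap, by less than 1 CPM between ZF-SGLT2i rat 4 and ZL rat 3. The log2 fold change was -0.10 in ZF against ZL (95% interval -0.22 to 0.02, limma adjusted p = 0.25) and -0.07 in ZF-SGLT2i against ZF (95% interval -0.20 to 0.05, limma adjusted p = 0.56). In ZF-SGLT2i against ZL it was -0.17 (limma adjusted p = 0.039), and that call was lost in 10 of 24 alternatives, 6 of them single rats left out: ZL rats 1, 2 and 4 and ZF-SGLT2i rats 2, 3 and 6 (limma adjusted p from 0.0653 to 0.11).

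Hmox1, the inducible heme oxygenase that frees iron from heme, had few reads in every rat. It was 4.40, 5.98, 5.56 and 6.34 CPM in ZL, 6.04, 5.11, 6.75 and 4.70 in ZF and 5.62, 3.23, 2.82 and 3.34 in the ZF-SGLT2i group. ZF-SGLT2i rats 3, 4 and 6 lay below all untreated rats, and ZF-SGLT2i rat 2 lay among the untreated. ZF-SGLT2i against ZF gave a log2 fold change of -0.51 (95% interval -0.88 to -0.14, limma adjusted p = 0.13). Without ZF-SGLT2i rat 2 it was -0.679 (limma adjusted p = 0.0319). Against ZL it was -0.49 (limma adjusted p = 0.047), a call lost in 16 of 23 alternatives. These include leaving out ZL rat 2, 3 or 4, ZF rat 2 or 3, or ZF-SGLT2i rat 3, 4 or 6 (limma adjusted p from 0.0567 to 0.121). ZF and ZL differed by 0.02 (95% interval -0.35 to 0.38, limma adjusted p = 0.96).

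**Figure D2:**
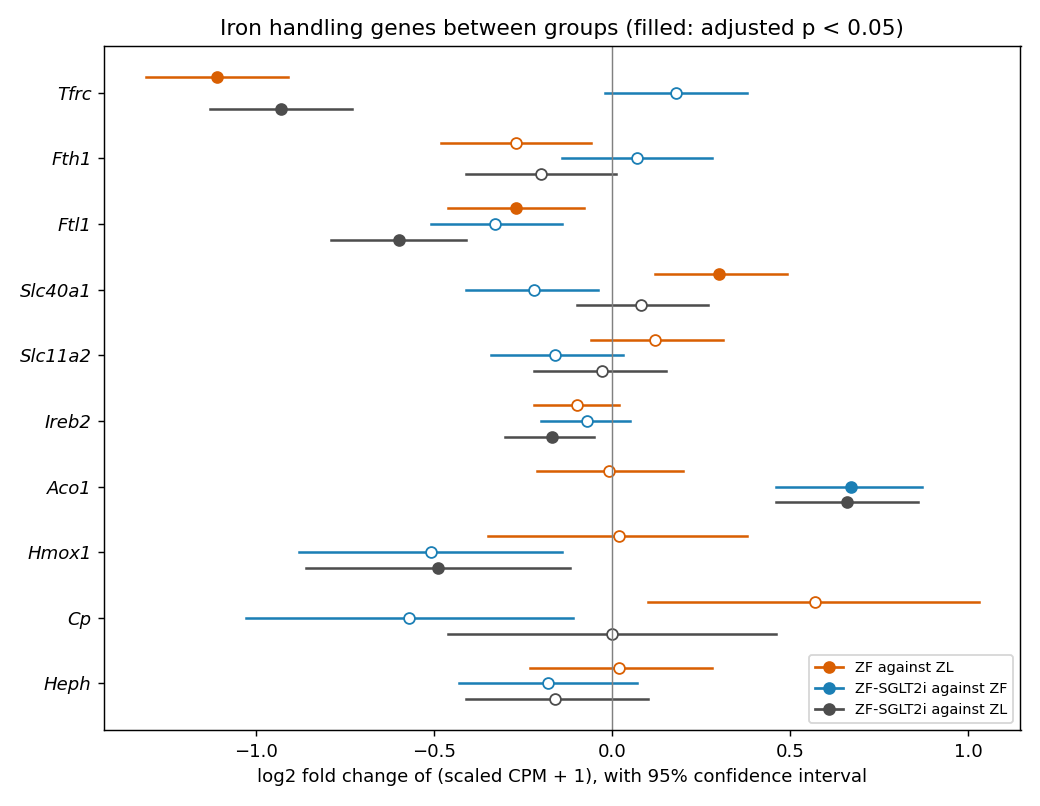
Log2 fold change of (scaled CPM + 1) of each member with its 95% confidence interval, in ZF against ZL (orange), ZF-SGLT2i against ZF (blue) and ZF-SGLT2i against ZL (grey), filled where the adjusted p-value was under 0.05. Tfrc at -1.11 and Aco1 at 0.67 lie farthest from 0 among the filled points of the first 2 comparisons, and the intervals of Cp and Hmox1 are the widest.

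Further genes of iron and heme metabolism were taken from 8 lists with 95 genes: 86 had a value and 80 could be tested. The lists were drawn up with earlier results of these data known. No share of a list above or below that of all genes is therefore read as a result. In ZF against ZL, 24 of the 80 were called, 4 higher and 20 lower, which is 30% where 18.8% of all genes were called; with quantile normalization the split was 7 higher and 13 lower of 20. The median log2 fold change of the 80 was -0.11. The count fell to 14 without ZL rat 1 and to 15 without ZF rat 5, fits in which the count over all genes fell as well, from 2185 to 1389 and 1585. In ZF-SGLT2i against ZF, 2 of the 80 were called, both higher, which is 2.5% where 3.15% of all genes were called, and the median was -0.02. That count was 1 without ZF rat 3 or 4 or without ZF-SGLT2i rat 2, 3 or 4, where the count over all genes was 184, 187, 263, 176 and 210 in place of 366. No gene of these lists was called in both of these comparisons. In ZF-SGLT2i against ZL, 34 of the 80 were called, 9 higher and 25 lower, where 27.4% of all genes were called, 12.4% higher and 15% lower. With quantile normalization 30 were called there, 9 higher and 21 lower, where 1614 of all genes were higher and 1461 lower.

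Iron uptake and reduction had 2 genes called higher and 3 lower of 12 tested in ZF against ZL, where 8.19% of all genes were called higher and 10.6% lower, and none in ZF-SGLT2i against ZF, where 3.15% were called. Slc39a8, which encodes the metal importer ZIP8, was 67.7, 44.2, 46.8 and 89.1 CPM in ZL and 38.8, 30.8, 39.7 and 23.8 CPM in ZF, with ZL rats 1 and 4 highest and no overlap. Its log2 fold change was -0.85 (SE 0.21, limma adjusted p = 0.014), a call lost on rats 2, 3 and 4 with the rat number as a block (-0.64, adjusted p = 0.0819) or without it (adjusted p = 0.0938). Scara5, a receptor for ferritin, was low, at 2.78, 1.21, 0.907 and 0.983 CPM in ZL and 4.99, 3.01, 3.93 and 2.84 CPM in ZF. It was higher in ZF by 0.96 on the log2 scale (SE 0.23, limma adjusted p = 0.012), and the lowest ZF rat was just above ZL rat 1.

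Among genes of ferritin turnover, Ncoa4, the receptor that carries ferritin to the lysosome for iron release, was called in ZF-SGLT2i against ZF, where 3.15% of all genes were. It was 346, 393, 411 and 363 CPM in ZL, 359.8, 398, 386 and 423 in ZF and 535, 533, 479 and 506 in the ZF-SGLT2i group, so that all treated rats were above all others. The log2 fold change was 0.39 (SE 0.07, limma adjusted p = 0.0093), and it was called in all 24 alternatives. Neither of the other 2 tested genes of that list was called in this comparison. Of 5 tested genes of export and hepcidin control, Bmp6, a signal for hepcidin production, was called in ZF against ZL, which is 20% where 18.8% of all genes were called. It was 8.08, 9.71, 5.56 and 9.02 CPM in ZL and 14.3, 14.0, 13.5 and 10.8 CPM in ZF (log2 fold change 0.66, SE 0.14, limma adjusted p = 0.0064).

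Of 6 genes listed with the control of the iron regulatory proteins, 3 were lower in ZF than in ZL and none higher, where 10.6% of all genes were called lower. Skp1 and Cul1 are parts of the ubiquitin ligase that degrades iron regulatory protein 2. Skp1 was 496, 392, 418 and 522 CPM in ZL and 329, 330.2, 390.2 and 309.7 CPM in ZF, with no overlap (log2 fold change -0.42, limma adjusted p = 0.013), a call lost on rats 2, 3 and 4 with no block (-0.337, adjusted p = 0.0965).

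**Figure D3:**
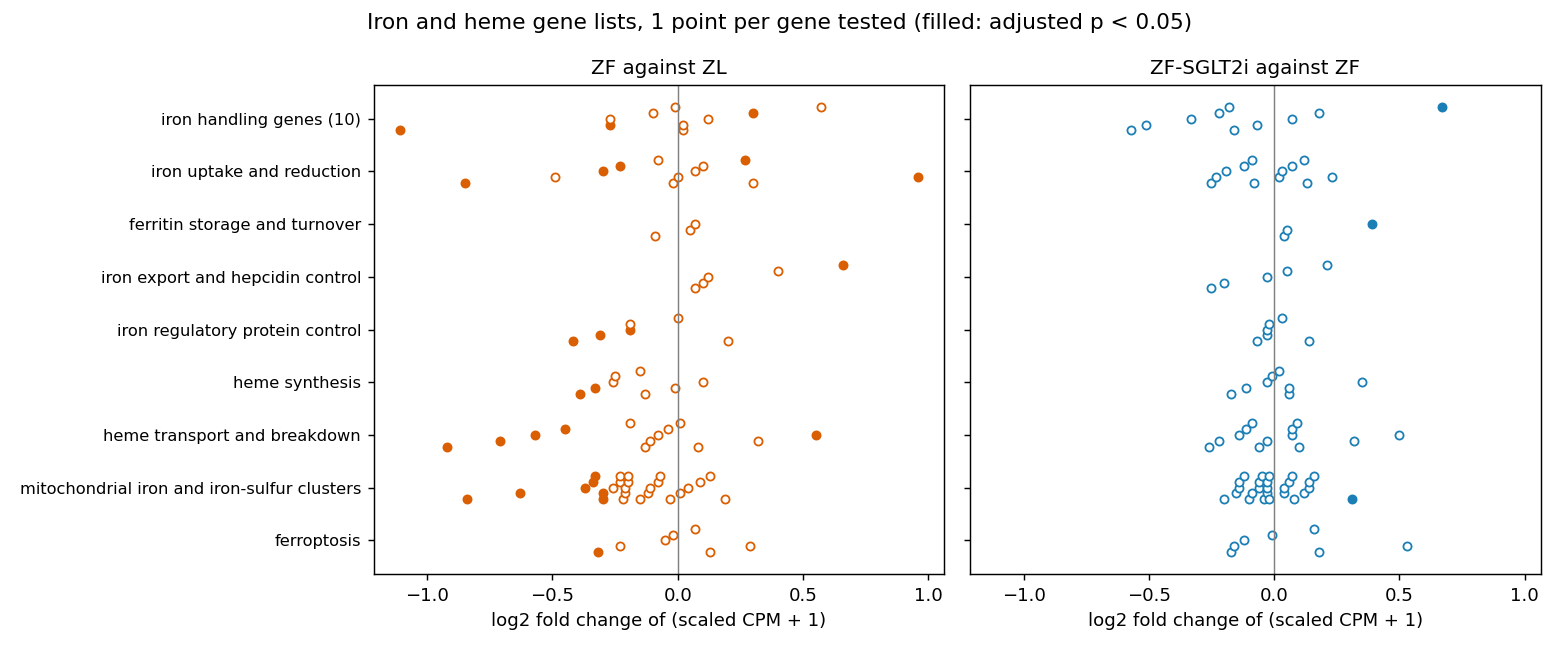
Log2 fold change of (scaled CPM + 1) of each tested gene of the iron and heme lists in ZF against ZL (left) and ZF-SGLT2i against ZF (right), 1 point per gene, filled where the adjusted p-value was under 0.05. Most filled points on the left lie below 0, 20 of the 24 of the further lists, and the right panel holds 3 filled points, Aco1, Ncoa4 and Iba57.

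In heme synthesis, 2 of 8 tested genes were lower in ZF and none higher, which is 25% where 18.8% of all genes were called, 10.6% lower. Fech inserts iron into protoporphyrin as the last step of the pathway, and Ppox makes that protoporphyrin. Fech was 61.5, 49.7, 57.0 and 62.3 CPM in ZL and 42.0, 43.3, 52.1 and 37.7 CPM in ZF (log2 fold change -0.39, limma adjusted p = 0.025), and ZF rat 4 overlapped with ZL. Ppox was 38.0, 35.9, 39.2 and 32.9 CPM in ZL and 26.3, 26.0, 35.5 and 28.2 CPM in ZF, again with ZF rat 4 inside the ZL range (log2 fold change -0.33, limma adjusted p = 0.043). Ppox lost its call in 14 of 24 alternatives, without any 1 of ZL rats 1, 2 and 3, ZF rats 2, 3 and 5 and ZF-SGLT2i rats 2, 3 and 4 among them (adjusted p from 0.0516 to 0.122), and Fech in 7, without any 1 of ZL rats 1 and 4 and ZF rats 2, 3 and 5 among them (adjusted p from 0.0595 to 0.0722).

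In heme transport and breakdown, 1 gene was higher and 4 were lower of 13 tested in ZF, where 8.19% of all genes were called higher and 10.6% lower. Slc48a1, which moves heme out of lysosomes, was 103, 134, 102 and 99.2 CPM in ZL and 161, 168, 146 and 166 CPM in ZF (log2 fold change 0.55, SE 0.10, limma adjusted p = 0.0027), a call lost with the rat number as a block (0.51, adjusted p = 0.0648). Blvra, which turns the biliverdin left by heme oxygenase into bilirubin, was 60.2, 37.6, 45.7 and 97.4 CPM in ZL and 35.8, 25.9, 31.1 and 25.8 CPM in ZF. ZL rats spread widely, and ZF lay below them without overlap (log2 fold change -0.92, SE 0.21, limma adjusted p = 0.01). The Blvra call was lost on rats 2, 3 and 4 with the block (-0.828, adjusted p = 0.0817) or without it (adjusted p = 0.0881). None of these 13 genes was called in ZF-SGLT2i against ZF, where 3.15% of all genes were.

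Mitochondrial iron and iron-sulfur cluster genes had 7 of 26 tested lower and none higher in ZF, where 10.6% of all genes were called lower and 8.19% higher. The smallest p-value was that of Abcb10, a mitochondrial carrier tied to heme formation, at 134, 125, 119 and 119.9 CPM in ZL and 72.3, 68.8, 67.7 and 68.0 CPM in ZF. The groups lay far apart beside their spread (log2 fold change -0.84, SE 0.07, limma adjusted p = 1.1e-05), and the call held in all 24 alternatives. Cisd1, an outer membrane iron-sulfur protein, was 209.9, 177, 173 and 233 CPM in ZL and 122, 124, 142 and 122 CPM in ZF (log2 fold change -0.63, limma adjusted p = 0.00074). Iba57, a late factor of cluster assembly, was 27.8, 26.5, 26.9 and 24.5 CPM in ZF and 36.4, 31.3, 33.3 and 30.9 CPM in ZF-SGLT2i. It was called higher after treatment (log2 fold change 0.31, SE 0.07, limma adjusted p = 0.029), a call lost in 8 of 24 alternatives, including when ZF rat 3, 4 or 5 was left out, or ZF-SGLT2i rat 2, 3 or 4 (limma adjusted p from 0.0531 to 0.0817). Of 7 tested ferroptosis genes, 1 was called in ZF against ZL, which is 14.3% where 18.8% of all genes were called. The called gene was Gpx4, which reduces lipid peroxides and was lower in ZF, with 283, 249, 236 and 300.2 CPM in ZL and 219, 215, 228 and 194 CPM in ZF (log2 fold change -0.32, limma adjusted p = 0.019), a call lost in 5 of 24 alternatives: without ZL rat 1 (adjusted p = 0.0606) or ZF rat 5 (adjusted p = 0.0556), with quantile normalization (-0.209, adjusted p = 0.0704), and on rats 2, 3 and 4 with the block (adjusted p = 0.105) or without it (adjusted p = 0.125).

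**Figure D4:**
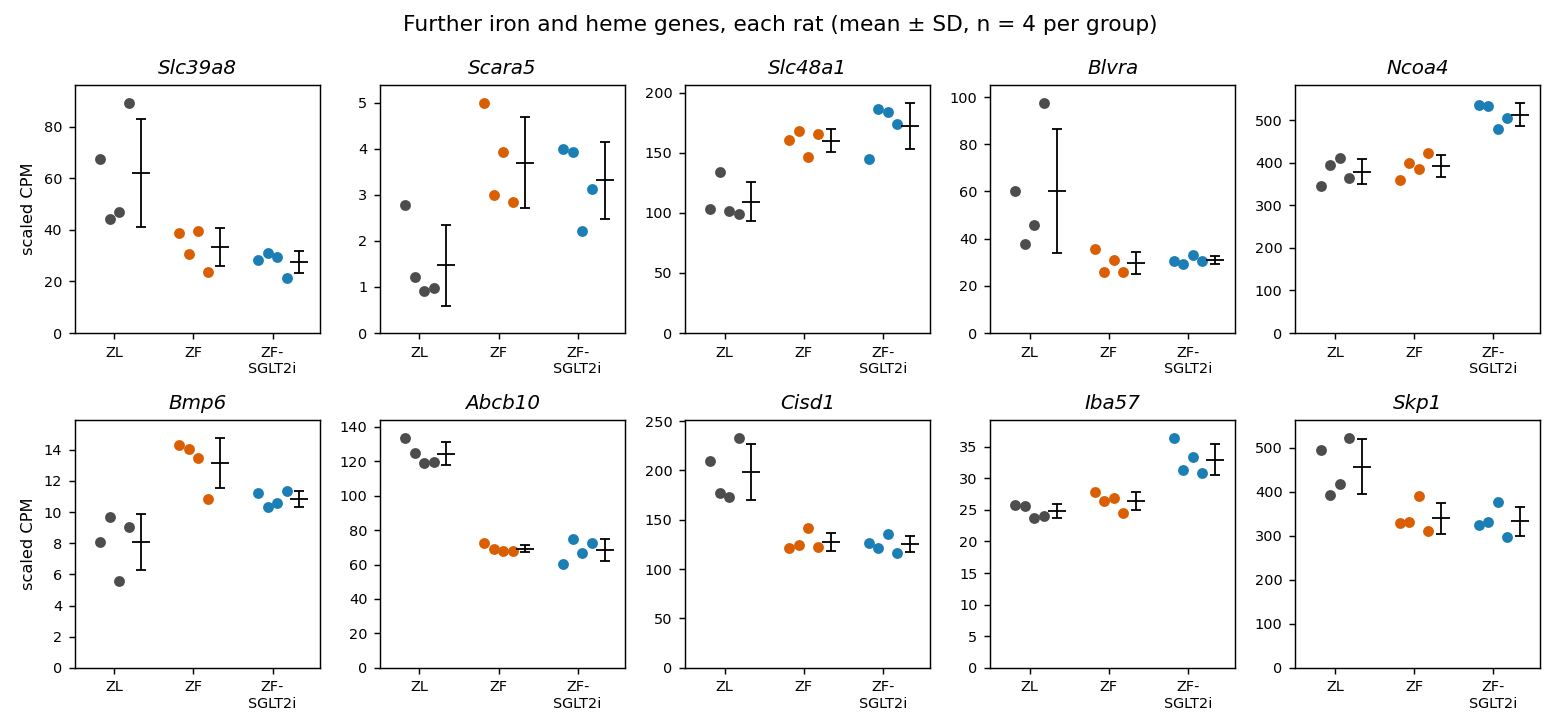
Scaled CPM (vertical axes, from 0) of 10 further iron and heme genes in ZL (grey), ZF (orange) and ZF-SGLT2i (blue), 1 point per rat in order of rat number, with the mean ± SD of the 4 rats in black. Abcb10 was 119 to 134 in ZL and 75.0 or less in the obese rats, and Ncoa4 was 479 to 535 in ZF-SGLT2i and 423 or less in the others.

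Other genes had profiles over the 12 rats close to those of Tfrc and Aco1, measured by Pearson correlation of log2(CPM + 1). For Tfrc they were Ppard (r = 0.972), Acsm5 (r = 0.966) and Vps37d (r = 0.960). Ppard, a nuclear receptor for fatty acids, was 94.1 ± 11.4 CPM in ZL, 35.0 ± 0.489 in ZF and 36.2 ± 1.41 in the ZF-SGLT2i group, and Acsm5 was 26.1 ± 2.99, 11.4 ± 1.32 and 12.0 ± 1.21 (mean ± SD, n = 4). For Aco1 they were Serpina1 (r = 0.957), Slc27a1 (r = 0.931) and Pam (r = 0.929). Slc27a1, a fatty acid transporter, was 36.5 ± 1.33, 38.5 ± 1.02 and 53.4 ± 3.66 CPM, and Serpina1 was near the limit of the table at 0.274 ± 0.201, 0.397 ± 0.315 and 1.75 ± 0.389. Serpina1 reached a CPM of 1 only in the treated rats and so passed the filter only through the group in which Aco1 is high, and nothing is read from its correlation. These correlations span the 3 groups, so the group differences make up much of them.

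Markers of cell types and states were read against the same shares of all genes, 8.19% called higher and 10.6% lower in ZF against ZL and 1.39% and 1.75% in ZF-SGLT2i against ZF, and nothing is read from lists with 1 or 2 called genes. These lists too were drawn up with earlier results of these data known. Of 12 injured tubule markers, 9 were higher in ZF than in ZL, led by Spp1, and their summed CPM was 618 ± 59.0 in ZL, 1507 ± 688 in ZF and 1207 ± 350 in the ZF-SGLT2i group. Proximal tubule markers had 1 called higher and 2 lower of 10 in ZF against ZL, and 1 lower in ZF-SGLT2i against ZF, Slc22a6. Collecting duct markers summed to 1246 ± 248, 1521 ± 251 and 2054 ± 160 CPM, with 1 of 5 called higher in each of the first 2 comparisons. Macrophages, which recycle iron and express Slc40a1 and Hmox1, had 1 of 10 tested markers higher in ZF (Cd14), and summed CPM of 221 ± 32.7, 319 ± 58.8 and 282 ± 91.7, led by Lyz2. Fibroblast markers had 2 of 6 higher in ZF, and 4 of 6 lower in ZF-SGLT2i than in ZF. In ZF-SGLT2i against ZL, 12.4% of all genes were called higher and 15% lower. There, 4 of 5 collecting duct markers were called higher, and 3 of 6 fibroblast markers lower. Injured tubule markers had 7 of 12 called higher and 1 lower, podocyte markers 3 of 6 higher, and proximal tubule markers 3 of 10 lower.

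Red cell markers were near the floor, with summed CPM of 7.93 ± 0.788 in ZL, 20.6 ± 9.72 in ZF and 30.4 ± 21.8 in the ZF-SGLT2i group, led by Hba2; Hba1 was at 0 in 3 rats and Hbb-b1 in 1. ZF rat 3 (7.92) lay within the ZL range and ZF-SGLT2i rat 3 (5.15) below it. Podocyte markers had 3 of 6 and endothelial markers 2 of 7 called higher in ZF, and none of either in ZF-SGLT2i against ZF. None of 6 thick limb and distal tubule markers and neither of the 2 tested lymphocyte markers was called in these 2 comparisons. Except for these values, the part of cell composition in the iron gene differences was not tested.

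Clock genes, a list drawn up after they had been seen to move, differed between ZL and ZF too. Of 13 tested, 8 were called higher and 3 lower in ZF against ZL, where 18.8% of all genes were called, and none in ZF-SGLT2i against ZF, where 3.15% were. The activator gene Arntl was 43.1 ± 9.21 CPM in ZL, 3.59 ± 2.45 in ZF and 2.43 ± 0.465 in the ZF-SGLT2i group, and Dbp, a clock output, was 40.7 ± 17.6, 254 ± 52.0 and 297 ± 31.7 CPM (SD, n = 4). The time of day at which each rat was killed is not given in the sources used here, and the part of the clock in the ZF against ZL values of Tfrc and the other iron genes was not tested.

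**Figure D5:**
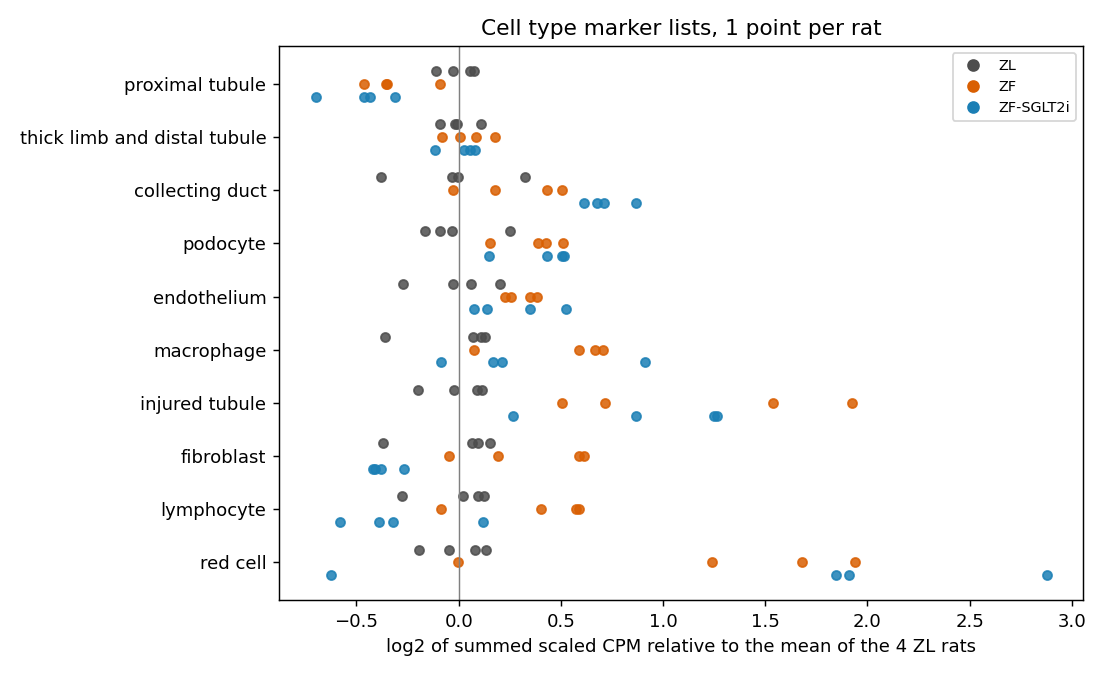
Summed scaled CPM of each cell type marker list as log2 relative to the mean of the 4 ZL rats (horizontal axis), 1 point per rat, in ZL (grey), ZF (orange) and ZF-SGLT2i (blue). Injured tubule sums, led by Spp1, lay above the ZL mean in all 8 obese rats, and proximal tubule sums, led by Lrp2, lay below it in all 8.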

How the data were processed

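RNA of the renal cortex of 12 rats was sequenced, 4 in each of 3 groups. The authors deposited 1 table of normalized signal values; no column belonged to another sample. The submitters' processing notes name Trimmomatic 0.38, RSEM 1.3.0, Bowtie2, edgeR and the rat genome rn6, without their order. In each rat, 100% of values were whole multiples of what 1 read is worth (tolerance 0.01 read), and those steps are those of edgeR's TMM-scaled CPM. Whole counts, called reads here, were therefore recovered by division. As RSEM divides reads that match several places, these counts may be rounded estimates. The values being scaled, limma 3.58.1 (R 4.3.3) was run on log2(value + 1) for genes that reached a value of 1 in 4 or more rats, with the 3 groups in 1 fit, eBayes with trend, two-sided p-values and Benjamini-Hochberg adjustment over 11633 genes; genes under 0.05 were called. A fold change on this scale understates that of a low gene. Members were also compared by exact two-sided permutation of the 70 assignments of 4 rats against 4. The p-values measure the spread between rats, and counting error adds to it in genes with few reads.

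The members, the 8 further lists, the marker lists and the naming rule were chosen with earlier results of these data known, and the clock list after its genes had been seen to move. The rule named all members, the genes of the further lists called for both the obese state and the treatment, the 2 with the smallest p-value among the called genes of each list in either, and, for the member with the smallest p-value in each, the 3 most alike genes. A gene that this rule takes in is not reported here. Cul1, Slc22a6, Cd14 and the marker and clock genes given with values were named after their values were seen. Some listed genes carried an older symbol in the table. Of the further lists, Tfr2, Tmprss6, Alas2, Hpx, Slc7a11 and Alox15 were below the filter. No library was a copy of another library of its group. Promoters were taken from RefSeq (GRCr8), and no GRCr8 position was applied to the rn6 values. On simulated data for ZF against ZL with 200 changed genes among 11578 tested, limma found 83% of changes of 2-fold, 99% of changes of 4-fold and 5 false calls, and it called 1 of 11571 genes when nothing had changed. The simulation changed far fewer genes than were called in the data and held no change under 2-fold. Its rates therefore do not carry over to the smaller changes of most members. Alternative settings were: 0.1 as pseudocount, all genes kept, only genes with a mean of at least 10, median-ratio scaling, quantile normalization, only the 2 groups compared, the rat number as a block, array quality weights, edgeR 4.0.16 quasi-likelihood and DESeq2 1.42.0 on the recovered reads, and each rat left out in turn. Fits of rats 2, 3 and 4 without the block, and TMM without ribosomal RNA genes, were added after seeing the data. Figures were drawn with matplotlib 3.10.9.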

Additional observations from a re-analysis of the deposited data

Results flagged for a closer look

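Among 69 groups of 4 rats, a member or further gene in 1 group each, 6 held a rat far from the other 3, where chance gives about 3.45. ZF rat 4 stood apart for 3 genes. Its Slc11a2 was 217 CPM, where the other ZF rats lay between 279.7 and 286. Its Aco1 was 395 CPM beside 321 to 325, and its Cisd1 was 142 CPM beside 122 to 124. For Tfrc, ZF rat 5 was highest at 68.9 CPM, with the other ZF rats between 61.9 and 62.9, and still below every ZL rat.

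The others were ZL rats. ZL rat 1 had 2.78 CPM of Scara5 beside 0.907 to 1.21, and ZL rat 2 had 134 CPM of Slc48a1 beside 99.2 to 103. The same ZF rat 4 held the smallest ribosomal RNA share of its group, 8.82% of reads, where the ZF rats reached 12.0%. Whether that share has a part in its values was not tested.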

How the results depend on the processing

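Over the 24 alternatives, Tfrc (both obese groups against ZL), Aco1 in ZF-SGLT2i against ZF and against ZL, Abcb10 and Ncoa4 kept their direction and their call. Members called in ZF against ZL numbered 1 with only the 2 groups compared, 1 with the replicate block, 1 on rats 2, 3 and 4 without it and 5 with DESeq2, and ranged from 1 to 5 with single rats left out. In ZF-SGLT2i against ZF they numbered 2 with a mean of at least 10, array quality weights, edgeR or DESeq2, and 1 to 2 with rats left out. In ZF-SGLT2i against ZL they numbered 3 with quantile normalization, the replicate block, rats 2, 3 and 4 without it, or TMM without ribosomal RNA genes, and 3 to 5 with rats left out. Further genes called numbered 7, 1 and 18 in the 3 comparisons with the replicate block and 6, 1 and 17 without it, and in ZF-SGLT2i against ZF 5 with array weights and 4 with DESeq2. With rats left out they ranged from 14 to 28, 1 to 3 and 27 to 36. All genes called numbered 811, 222 and 1500 with the block and 918, 226 and 1615 without it, and in ZF-SGLT2i against ZF 689 with array weights and 641 with DESeq2, with leave-one-out ranges of 1389 to 2453, 176 to 570 and 2241 to 3302. The fits on rats 2, 3 and 4 hold 3 rats per group, and the cause of the other changes was not tested.

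Some log2 fold changes changed sign, that of Ftl1 in ZF against ZL, a called member, among them. Aco1 in ZF against ZL was 0.004 with median-ratio scaling, 0.127 with quantile normalization, 0.05 on rats 2, 3 and 4 with or without the block, 0.006 with DESeq2 and 0.008 without ribosomal RNA genes, and -0.077 to 0.032 with rats left out. Cp in ZF-SGLT2i against ZL was 0.003, 0.027, 0.098, 0.02 and 0.011 in those settings, 0.046 with array weights and 0.014 with edgeR, and -0.133 to 0.087 with rats left out. With quantile normalization, Fth1 was 0.053 in ZF against ZL, Fth1 0.155 in ZF-SGLT2i against ZL, Ftl1 0.05 in ZF against ZL, Slc11a2 0.067 in ZF-SGLT2i against ZL and Hmox1 -0.06 in ZF against ZL. Hmox1 in ZF against ZL was -0.004 on rats 2, 3 and 4 with or without the block, and Heph there was -0.029 with array weights. With rats left out, Hmox1 in ZF against ZL ranged from -0.074 to 0.088, Heph from -0.055 to 0.103, and in ZF-SGLT2i against ZL Slc11a2 from -0.068 to 0.025 and Slc40a1 from -0.005 to 0.124.

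The rat numbers were not taken as pairs in the main fit. Residuals of same-numbered rats of different groups correlated between -0.376 and 0.253 in 9 pairs, and 2 were above 0.1. In 39 pairs with different numbers they correlated between -0.402 and 0.455, and 13 were above 0.1. So few pairs cannot exclude a pairing or a shared batch. Among the 10 members, Hmox1 had the fewest reads, 28 to 79 per rat. Scara5 of the further lists had fewer, 8 to 31 in ZL rats and 26 to 52 in ZF rats.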
